A study of Mus musculus with 32 samples.

Results

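RNA sequencing of mouse brain tumors was examined for the genes that carry cargo along the primary cilium and hold the gate at its base. The set was defined by gene symbol, and no measured value enters the rule, but earlier results of these data were known when it was chosen. It takes the protein-coding genes whose symbols begin with Ift, Bbs, Tctn, Nphp or B9d followed by a digit, together with Ttc8, Mks1, Cc2d2a, Rpgrip1l, Cep290, Arl13b, Kif3a, Kif3b, Dync2h1, Wdr19 and Wdr35. This gave 41 genes of the 37310 in the count table. Of these, 40 are protein-coding in the mouse annotation used here, and Tctn2 is protein-coding in RefSeq only. The antisense genes B9d1os and Ift88os have symbols that begin in the same way and were left out because they are not protein-coding.

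The primary cilium is a single antenna of microtubules that most non-dividing vertebrate cells build from the older centriole. Intraflagellar transport moves material along it. Kinesin-2, with the motor subunits Kif3a and Kif3b, carries IFT-B trains to the tip, and the dynein-2 motor with the IFT-A complex brings them back. The BBSome takes membrane proteins out of the cilium, and the transition zone at the base decides what enters. Granule neuron progenitors of the cerebellum receive Hedgehog signals through this cilium, and the light-sensing outer segment of photoreceptors is a modified form of it.

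The samples were brain tumor biopsies from 2 transgenic models of medulloblastoma, 6 from GMYC mice and 8 from GTML mice. GMYC mice (Glt1-tTA/TRE-MYC) carry a Tet-OFF system in which the Glt1 promoter drives the transactivator tTA, which turns on a MYC transgene, and the paper describes them as doubly hemizygous on the FVBN background. GTML tumors come from the same system with MYCN in place of MYC, so Glt1-driven tTA is common to all tumors and no tumor without a transgene was compared. The paper gives FVB/N as the background of all its transgenic crosses. Its methods mention previously generated as well as new GTML tumors, and the labels do not say which tumor is which. Model and time of sequencing therefore cannot be fully told apart here. Ages and doxycycline exposure are not in the labels, and the labels do not say that each tumor came from a separate mouse, so p-values measure the spread between these biopsies. The study did not class every GTML tumor as Group 3, the subgroup these models stand for. GTML tumor 2 is taken here to be the tumor it set aside, from an earlier reading of these counts and not from a label.

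Total counts ranged from 6218378 to 7279811 per GMYC tumor and from 4602294 to 6317404 per GTML tumor. Otx2, Syp and Tubb3, markers of these neuronal tumors, were detected in all 14, and Tubb3 was called higher in GMYC. Small nucleolar RNAs took 0.366% to 0.438% of counts in GMYC tumors 1 to 4 and GTML tumors 1 and 2, and 0.151% to 0.272% in the other 8, a division seen in the counts and not given by the labels. Y-linked genes had at most 24 counts in 4 GTML tumors (2, 3, 5 and 8) and in no GMYC tumor. Values are CPM, counts divided by the TMM-scaled library size, and differences are edgeR log2 fold changes of GTML over GMYC with their standard errors (SE). A gene was called when its Benjamini-Hochberg adjusted p over all genes tested was under 0.05.

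All 41 genes were expressed in all 14 tumors, with at least 34 counts in any tumor, and all passed the filter on low counts. Over the 14 tumors, the median level of the 41 genes was 12.9 CPM per kilobase of exon, against 8.11 for the protein-coding genes tested. Ift20, the IFT-B subunit that also sits at the Golgi, had the highest level per kilobase at 34.6, followed by Kif3a at 30.3. Tctn1, a tectonic of the transition zone, had the lowest at 3.22. In this order, 38 of the 40 pairs of neighbours lay closer together than the SD of the higher gene between tumors of a model. Within a model, the 41 genes varied less than most: their median coefficient of variation was 18.3% in GMYC tumors and 25.5% in GTML tumors, against 24.4% and 29.4% for the protein-coding genes tested.

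**Figure D1:**
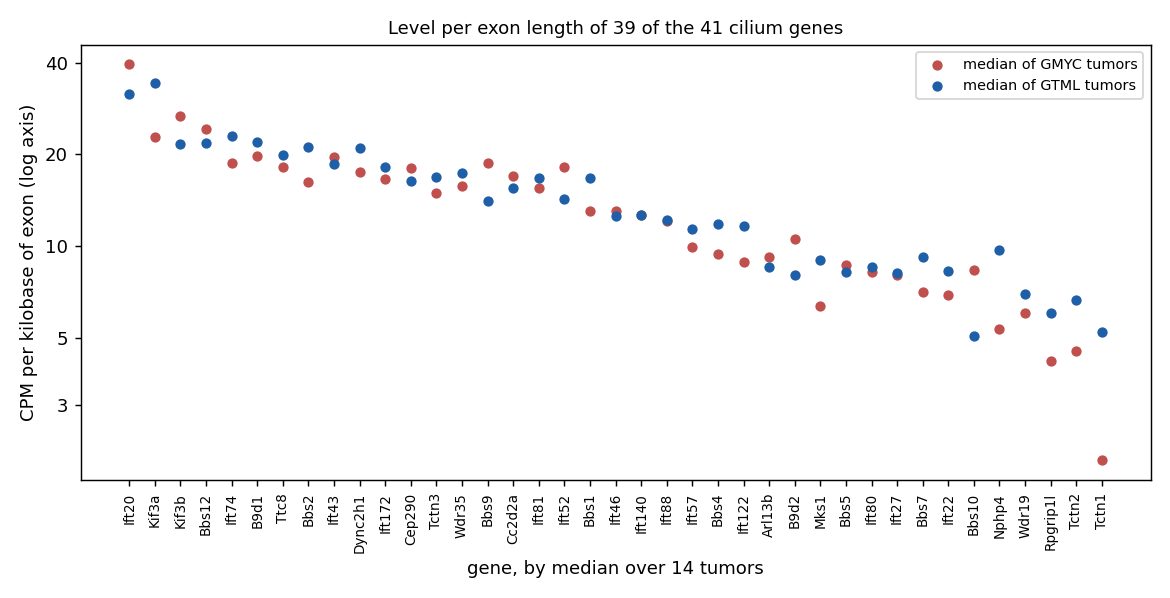
Median CPM per kilobase of exon (log axis) in the 6 GMYC and the 8 GTML tumors for 39 of the 41 genes, ordered by the median over all tumors. Levels spanned from 34.6 for Ift20 to 3.22 for Tctn1.

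Between the models, 5 of the 41 genes were higher in GTML tumors (Kif3a, Nphp4, Tctn1, Ift122 and Rpgrip1l) and none was higher in GMYC tumors. The share higher in GTML, 12.2%, was close to the 11.5% called in that direction among all 21024 genes tested, while 9.71% of all genes were called higher in GMYC. At an unadjusted p under 0.05, 9 of the 41 genes were higher in GTML and 3 were higher in GMYC (Ift20, Ift52 and Bbs10). These 12 of 41 are a smaller share than the 37.8% of all genes at that p in either direction. DESeq2 called 7 of the 41 higher in GTML, adding Tctn2 and Bbs7 to the 5, and 2 higher in GMYC (Ift20 and Ift52), against 15.7% and 12.1% of all genes. Limma-voom called 4 and 0, without Tctn1, against 9.99% and 11.4%. The log2 fold change was positive for 63.4% of the 41 genes and for 52.5% of all genes, and its median was 0.17 against 0.04. Under a stricter rule that asks for an adjusted p below 0.01 and more than a doubling (log2 fold change above 1 in size), edgeR called 0 of the 41 genes, against 2.11% of all genes higher in GTML and 1.10% higher in GMYC. DESeq2 called 1 under that rule, against 6.24% and 2.75% of all genes, and limma-voom 0, against 1.99% and 2.05%. Fewer cells of one type and less RNA per cell cannot be told apart in bulk tumors.

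**Figure D2:**
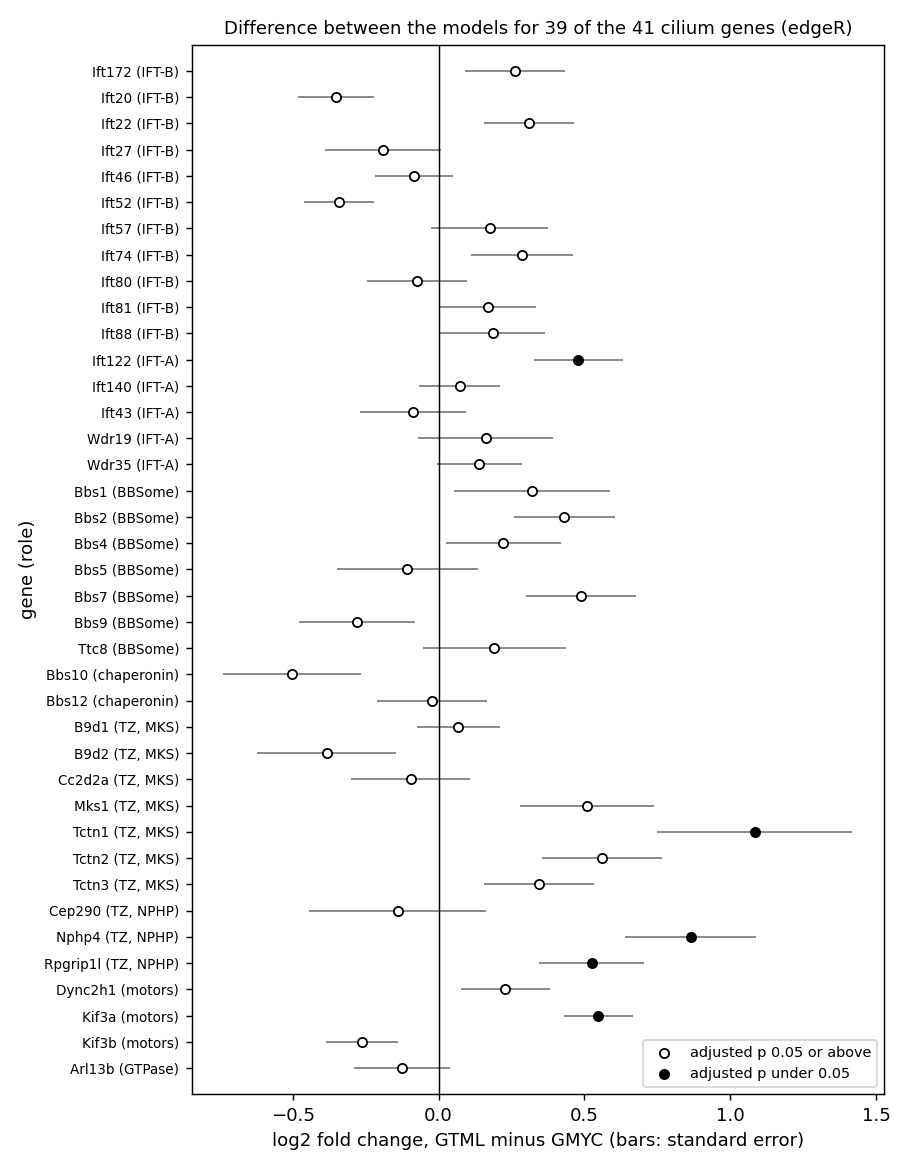
Log2 fold change of 39 of the 41 genes, GTML over GMYC, with its SE, grouped by role; filled points have an adjusted p under 0.05. The 5 filled points are Ift122, Tctn1, Nphp4, Rpgrip1l and Kif3a, all to the right of 0.

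The promoters were read for the X-box, the site bound by RFX factors at many cilium genes, through its first part, GTTGCC. RefSeq windows (GRCm38.p6, 250 bases before to 50 after the annotated start) were given for 36 of the 41 genes, in 39 windows; Ift122, Ift80 and Ift81 were among those without one. In the 250 bases before the start, on either strand, GTTGCC stood in 8 of 39 windows (20.5%), against 10.4% of all promoters and 10.6% of those of the protein-coding genes tested. In all 300 bases it stood in 19 windows (48.7%), against 12.5% and 12.7%, so that 11 of the 19 genes have it only in the first bases after the start. Of the 5 called genes, Kif3a, Tctn1 and Nphp4 hold it and Rpgrip1l does not, while Ift122 was not in the table. Ift88, Bbs1 and Tctn2, which edgeR did not call, hold it too.

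The sites are shown to let the letters that follow GTTGCC be compared between genes that differed between the models and genes that did not. Capitals mark GTTGCC, and each is read 5′ to 3′ on the strand that holds it (GRCm38.p6).
Kif3a, chr11:53567263-53567292, plus strand: ccgcaggcGTTGCCccagtctagcgtccat
Tctn3, chr19:40612350-40612379, minus strand: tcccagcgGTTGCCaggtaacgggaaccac
Ift88, chr14:57424076-57424105, minus strand: gcccagccGTTGCCaggcgcgactccaagg
Bbs1, chr19:4906605-4906634, minus strand: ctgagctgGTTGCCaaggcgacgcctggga
Tctn1, chr5:122264411-122264432, minus strand: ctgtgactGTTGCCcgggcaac
Tctn2, chr5:124598754-124598783, plus strand: gattggtgGTTGCCatggctgcaggcattt
Nphp4, chr4:152478135-152478164, plus strand: gcatcccgGTTGCCagctgatgttgggctg
In Kif3a the first base of the match in the gene's direction lies 98 bases before the start, and in Tctn3 140 bases before it. In Ift88, Bbs1, Tctn1, Tctn2 and Nphp4 it is base 22, 2, 37, 14 and 2, counted from 1 at the start. In Tctn1 GTTGCC is followed within a few bases by its own reverse complement.

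The promoter of Kif3a is shown whole because Kif3a is the gene that separated the models. The 250 bases before its start, on the plus strand of GRCm38.p6, are given with GTTGCC in capitals.
Kif3a, chr11:53567119-53567368, plus strand: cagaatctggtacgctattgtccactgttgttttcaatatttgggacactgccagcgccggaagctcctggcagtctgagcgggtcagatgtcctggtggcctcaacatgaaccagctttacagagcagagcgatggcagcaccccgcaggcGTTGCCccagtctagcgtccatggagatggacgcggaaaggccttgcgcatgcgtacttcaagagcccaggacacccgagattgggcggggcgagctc
The Kif3a promoter also holds the NRF1 motif GCGCATGCG and the GC box GGGCGG but no E-box CACGTG, the site of MYC and MYCN. Over the 39 windows of the set, CACGTG stood in 5.13% (Bbs7 and Wdr19), against 6.02% of all promoters and 7.81% of those of the protein-coding genes tested. GGGCGG stood in 53.8% against 32.7% of all promoters and 54.0% of those of the protein-coding genes tested. GCGCATGCG stood in 5.13% (2 of 39 windows, 95% Wilson interval 1.42% to 16.9%), against 1.45% and 2.55%. The longer GTTGCCATG, which overlaps GTTGCC, stood in 0 of 39 in this window, against 0.642% of all promoters. A match is a run of letters in a window and was not measured as a bound site here.

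Kif3a, a motor subunit of kinesin-2, gave the clearest difference. Its CPM lay between 67.7 and 105.8 in GMYC (median 81.7) and between 107.7 and 144.3 in GTML (median 122.8). Every GTML tumor lay above every GMYC tumor, by a narrow margin between GMYC tumor 6 and GTML tumor 1. The log2 fold change was 0.55 (SE 0.12, edgeR adjusted p = 0.0081), or 1.46-fold. Kif3a was the only one of the 41 genes without overlap; 2.14% of all genes tested lay entirely above in GTML and 2.48% entirely above in GMYC. Its log2 fold change was 0.44 (adjusted p = 0.40) among the 6 tumors rich in small nucleolar RNA and 0.48 (adjusted p = 0.073) among the other 8.

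Kif3b, the partner motor subunit of Kif3a in the same heterodimer, did not follow it. Its CPM lay between 127.9 and 160.5 in GMYC (median 151.0) and between 79.4 and 156.6 in GTML (median 122.0), with a log2 fold change of -0.26 (SE 0.12, adjusted p = 0.13). GTML tumor 2 was lowest, and the models overlapped. The ratio of Kif3a to Kif3b counts within a tumor needs no scaling between tumors. It lay between 0.44 and 0.78 in GMYC (median 0.58) and between 0.89 and 1.38 in GTML (median 0.98), without overlap. This ratio was looked at after the values of both genes had been seen, so no test is given. Kif3c, a motor gene outside the set, was called higher in GTML, with a log2 fold change of 0.32 (SE 0.11, edgeR adjusted p = 0.0436). Its models overlapped, at 116.4 to 173.5 CPM in GMYC and 150.8 to 213.4 in GTML. Dync2h1, the heavy chain of dynein-2, ranged from 217.0 to 342.9 CPM in GMYC tumors and from 214.3 to 438.8 in GTML tumors, with a log2 fold change of 0.23 (SE 0.15, adjusted p = 0.28).

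At the transition zone, Nphp4 was higher in GTML tumors. Nphp4 belongs to the nephronophthisis module that joins the ciliary membrane to the microtubules. Its CPM lay between 22.5 and 39.6 in GMYC (median 32.2) and between 33.7 and 77.7 in GTML (median 58.7). GTML tumors 4, 5, 6 and 7 stood between 72.2 and 77.7, whereas GTML tumors 1 and 3 lay within the GMYC range. The log2 fold change was 0.86 (SE 0.22, edgeR adjusted p = 0.0159), and on the 2 sides of the small nucleolar RNA division it was 0.25 among 6 tumors (adjusted p = 0.69) and 1.10 among 8 (adjusted p = 0.056).

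Rpgrip1l, a scaffold of the same module, was also called. Its CPM lay between 41.6 and 96.0 in GMYC (median 61.4) and between 74.2 and 121.3 in GTML (median 88.5), with a log2 fold change of 0.52 (SE 0.18, edgeR adjusted p = 0.0477). Only GMYC tumor 6 reached into the GTML range. Cep290, the large linker between membrane and microtubules, did not pass (log2 fold change -0.14, SE 0.30, adjusted p = 0.76). Its CPM varied widely within GTML, from 70.5 CPM in GTML tumor 1 to 377.7 in GTML tumor 3, against 161.0 to 241.7 in GMYC tumors. Of Cep290's exon bases, 7.58% are shared with 4930430F08Rik on the other strand, and how the counting treated strand is not stated.

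Tctn1 had the largest difference of the 41 genes. Tctn1, Tctn2 and Tctn3 are the tectonics, which act with Mks1, B9d1, B9d2 and Cc2d2a in the Meckel syndrome module of the transition zone. The CPM of Tctn1 lay between 10.3 and 30.0 in GMYC (median 16.4) and between 12.5 and 53.4 in GTML (median 43.2). GTML tumors 1, 3, 5, 6, 7 and 8 lay above all GMYC tumors, and GTML tumors 2 and 4 lay among them. The log2 fold change was 1.08 (SE 0.34, edgeR adjusted p = 0.0328), or 2.12-fold. Tctn1 shares 19% of its exon bases with Hvcn1 on the other strand. Tctn2 had a log2 fold change of 0.56 (SE 0.21, adjusted p = 0.0615), with 31.1 to 42.6 CPM in GMYC tumors (median 37.7) and 26.7 to 86.2 in GTML tumors (median 55.2). All GTML tumors but 2 and 4 lay above the GMYC range of Tctn2, as for Tctn1.

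The other 5 genes of this module did not pass. Mks1 had a log2 fold change of 0.51 (adjusted p = 0.12), Tctn3 of 0.34 (adjusted p = 0.19), B9d1 of 0.07, Cc2d2a of -0.10 and B9d2 of -0.38 (adjusted p = 0.25). B9d2 and its partner B9d1 thus had opposite signs, neither past the threshold.

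Of the IFT-A genes, Ift122, a core subunit, was higher in GTML tumors. Its CPM lay between 78.2 and 99.4 in GMYC (median 91.4) and between 88.2 and 191.2 in GTML (median 119.7), with a log2 fold change of 0.48 (SE 0.15, edgeR adjusted p = 0.0371). GTML tumors 2 and 4 lay within the GMYC range and GTML tumor 3 stood highest. The other 4 IFT-A genes had log2 fold changes between -0.09 (Ift43) and 0.16 (Wdr19), and Ift140 and Wdr35 lay between them at 0.07 and 0.14. None of those 4 passed.

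None of the 11 IFT-B genes passed with edgeR, and 2 had an unadjusted p under 0.05, Ift20 and Ift52. DESeq2 called the same 2 and limma-voom called neither. Ift88, the core subunit whose loss removes the cilium, lay between 35.6 and 61.7 CPM in GMYC (median 55.9) and between 42.9 and 91.2 in GTML (median 56.4), so the medians almost coincided. Its log2 fold change was 0.19 (SE 0.18, adjusted p = 0.47). The lowest Ift88 of all was in GMYC tumor 3 and the highest in GTML tumor 3.

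Ift52, another core subunit, and Ift20 had the lowest log2 fold changes of the IFT-B genes, at -0.34 (SE 0.12, adjusted p = 0.051) and -0.35 (SE 0.13, adjusted p = 0.066). Ift52 lay just outside the threshold. The GTPase-like subunits Ift22 and Ift27 had log2 fold changes of 0.31 and -0.19. The remaining IFT-B genes lay between -0.08 for Ift46 and 0.29 for Ift74, with Ift80 at -0.07, Ift81 at 0.17, Ift57 at 0.18 (sharing 7.86% of its exon bases with the antisense gene Gm15518) and Ift172 at 0.26.

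None of the 7 BBSome genes passed, although 2, Bbs2 and Bbs7, had an unadjusted p under 0.05. DESeq2 called Bbs7 and limma-voom called no BBSome gene. Bbs1, the subunit that binds Arl6 at the membrane, lay between 80.8 and 122.5 CPM in GMYC (median 100.1) and between 35.1 and 224.5 in GTML (median 128.6). The log2 fold change was 0.32 (SE 0.27, adjusted p = 0.40). GTML tumor 2 gave the lowest and GTML tumor 3 the highest of the 14 values. GTML tumors 4 and 6 lay within the GMYC range and GTML tumors 1, 5, 7 and 8 above it. Bbs7 and Bbs2 had log2 fold changes of 0.49 (SE 0.19, adjusted p = 0.074) and 0.43 (SE 0.17, adjusted p = 0.084). Bbs4 stood at 0.22, Ttc8 (BBS8) at 0.19, Bbs5 at -0.11 and Bbs9 at -0.28. Bbs10 and Bbs12, chaperonin-like proteins that help assemble the BBSome, had log2 fold changes of -0.50 (SE 0.24, adjusted p = 0.13) and -0.02. Arl13b, a GTPase of the ciliary membrane, stood at -0.13 (SE 0.16, adjusted p = 0.59).

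**Figure D3:**
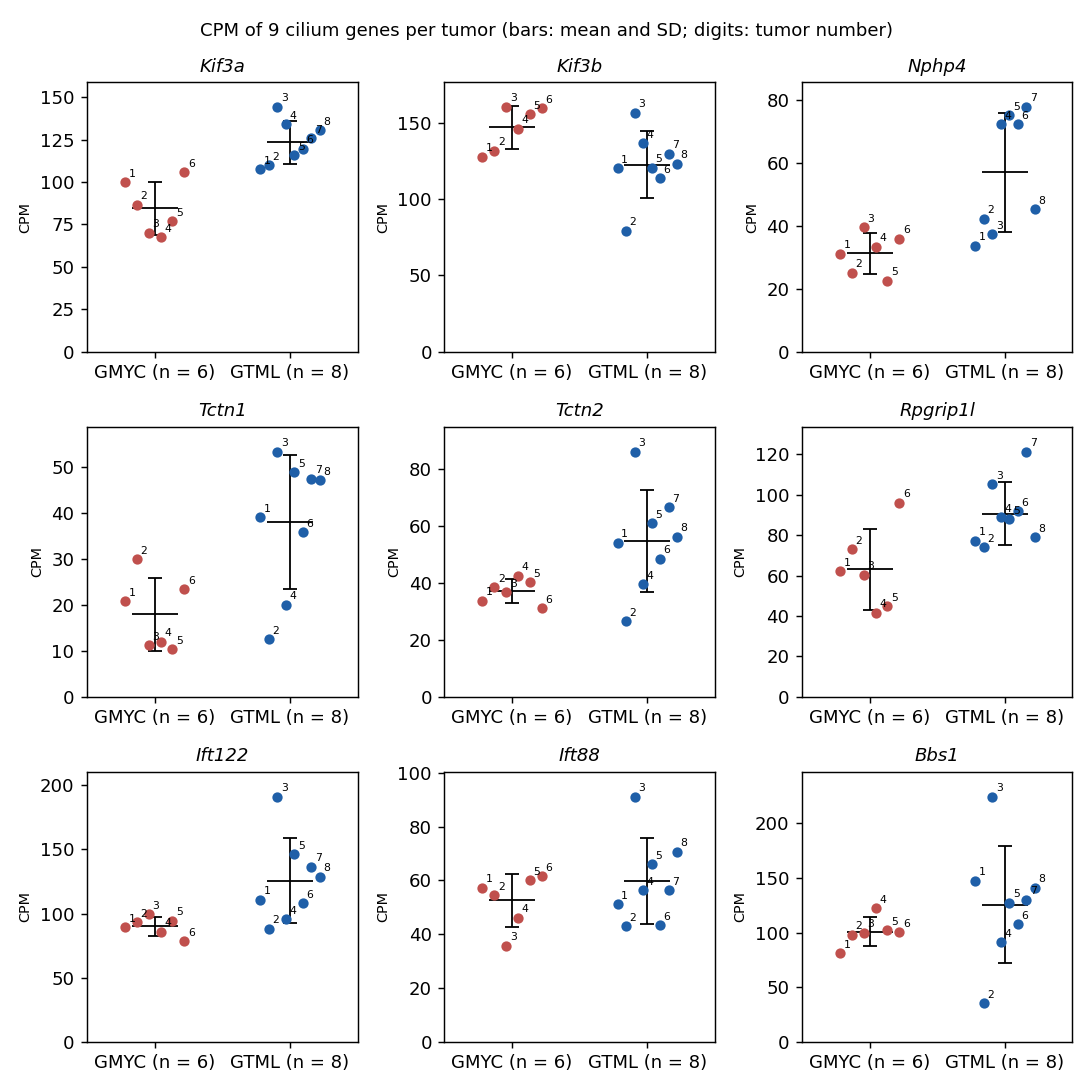
CPM of Kif3a, Kif3b, Nphp4, Tctn1, Tctn2, Rpgrip1l, Ift122, Ift88 and Bbs1 in each tumor (6 GMYC in red, 8 GTML in blue, digits giving the tumor number), with mean and SD. Kif3a separates the models, whereas Bbs1 spans 35.1 CPM in GTML tumor 2 to 224.5 in GTML tumor 3.

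For 29 of the 41 genes the SD of log2 CPM among GTML tumors was larger than the difference between the models, and for 34 it was larger than the SD among GMYC tumors. Neither count was made over all genes. The protein-coding genes tested also varied more in GTML, with a median coefficient of variation of 29.4% against 24.4% in GMYC. The same GTML tumors stood at the ends for many genes. GTML tumor 3 held the highest value of the 14 tumors for 29 of the 41 genes, whereas 12.8% of protein-coding genes tested peaked there. Relative to each gene's mean over the tumors, the median log2 level of the 41 genes was 0.67 in GTML tumor 3 and between -0.44 and 0.19 in the other 13 tumors. All 7 BBSome genes peaked in GTML tumor 3, as did 4 of 5 IFT-A genes, 6 of 11 IFT-B genes and 5 of 7 genes of the Meckel module. Against the median of the 6 GTML tumors other than 2 and 3, GTML tumor 3 stood at 1.79-fold for the median BBSome gene and 1.38-fold for the median IFT-B gene. The highest ratio was 2.22-fold for Bbs10, followed by 2.09-fold for Bbs5 and 1.99-fold for Cep290. Of the genes reported, Nphp4 and B9d2 lay below 1 in this ratio, at 0.516-fold and 0.815-fold.

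GTML tumor 2 held the lowest value of the 14 tumors for 13 of the 41 genes, against 12.4% of protein-coding genes tested. Of these 13, 5 belong to the Meckel module, which has 7 genes in the set. Against the median of the same 6 GTML tumors, its Bbs1 stood at 0.273-fold, its Tctn1 at 0.29-fold and its Cep290 at 0.372-fold. Both tumors were noticed after their values had been seen, and they are described without a test. In GMYC, tumor 6 held the highest value of all 14 for 4 genes, among them Ift27 and Ift80.

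**Figure D4:**
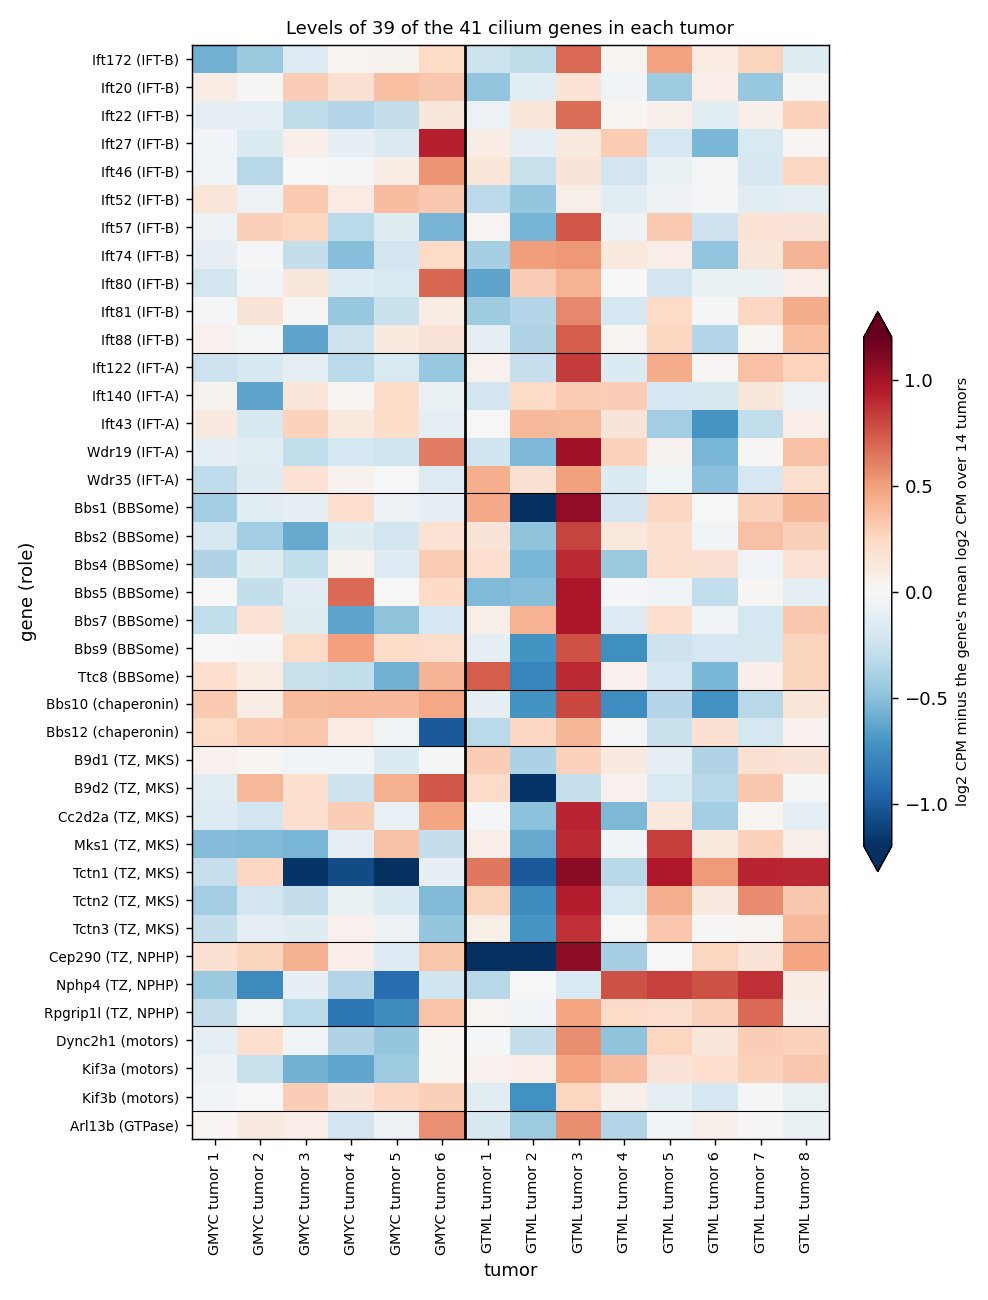
Log2 CPM of 39 of the 41 genes in each of the 14 tumors relative to the gene's mean, red above and blue below, ordered by role. GTML tumor 3 is red for 37 of these 39 genes and GTML tumor 2 is above the mean for 9.

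Without GTML tumor 2, edgeR called 9 of the 41 genes higher in GTML and 0 higher in GMYC (2 at an unadjusted p under 0.05; no other tool was run on these tumors). The 9 were the 5 genes above with Bbs2, Mks1, Tctn2 and Tctn3. The share of all genes called also rose, to 15.6% higher in GTML and 15.1% higher in GMYC. Leaving out GTML tumor 3, 2 genes were higher in GTML (Kif3a and Nphp4) and 3 higher in GMYC (Ift20, Ift52 and Bbs10), against 10.2% and 8.31% of all genes. Kif3a and Nphp4 were called in each of the 14 fits that left out 1 tumor, whereas Tctn1, Ift122 and Rpgrip1l lost their call in several of them. With the small nucleolar RNA share as a term, Kif3a was higher in GTML and Ift20 and Ift52 were higher in GMYC, and no others passed, against 6.79% and 6.77% of all genes. Within either side of that division alone, edgeR called none of the 41 genes, against 0.0106% of all genes among the 6 tumors and 13.3% among the 8. At an unadjusted p under 0.05, 0 were higher in GTML and 5 in GMYC among the 6 tumors, where 12.8% of all genes stood at that p, and 5 and 2 among the 8, where 35.1% did. With a covariate from Y-linked genes, Kif3a and Nphp4 were called higher in GTML and none higher in GMYC, against 5.48% and 2.74% of all genes.

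Markers of other cells were read beside these tumors. The summed CPM of 10 photoreceptor markers was 183.0 in GTML tumor 2 and 1730 in GTML tumor 3, the lowest and the highest of the 14, and 495.3 to 905.8 in the others. Of these 10 genes, 5 were called higher in GTML, among them Gnat1, Pde6b, Rcvrn and Sag. The other 5 did not pass with edgeR. Arr3, Prph2 and Nrl had log2 fold changes of 2.09, 1.39 and 0.50 (adjusted p = 0.063, 0.067 and 0.49). Crx and Gngt1 stood at -0.24 and -0.09 (adjusted p = 0.42 and 0.94). Crx lay between 344.3 and 429.3 CPM in GMYC and between 97.6 and 404.0 in GTML, with its highest value in GMYC tumor 5. The part of these cells or genes in the levels of the 41 cilium genes was not tested.

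Of the 10 markers of multiciliated ependyma, Tekt4, Ccdc153 and Tmem212 were at 0 counts in 6, 7 and 10 of the 14 tumors and never above 0.43 CPM. Foxj1, the master factor of motile cilia, and Tekt1 were called higher in GTML. Of the 5 other markers tested, none passed: Rsph4a and Dynlrb2 had log2 fold changes of 2.09 and 1.40 (adjusted p = 0.079 and 0.074), and Ccno, Mcidas and Rsph1 of -1.49 (adjusted p = 0.078), -0.61 and -0.33. Foxj1 ranged from 0.84 to 6.33 CPM in GMYC and from 1.14 to 23.1 in GTML, with its highest value in GTML tumor 3. The summed level of the list was 13.2 to 71.8 CPM in GMYC and 15.3 to 82.5 in GTML. Choroid plexus markers summed to at most 12.1 CPM, with Ttr at 0 counts in 3 tumors. Of the 6 genes of cycling cells, 3 were called higher in GMYC (Ccnb1, Cdk1 and Aurkb) and their sum was 1381 to 2737 CPM in GMYC and 1353 to 1856 in GTML. All 4 globin genes were called higher in GMYC, with sums of 34.8 to 133.9 CPM against 5.39 to 33.9. The summed astrocyte markers were 139.0 to 549.9 CPM in GMYC and 42.0 to 297.4 in GTML, with no gene called, and those of oligodendrocytes 110.0 to 288.1 and 107.3 to 299.9, with 1 called higher in GTML. Microglial sums (95.6 to 179.0 CPM in GMYC, 63.4 to 242.8 in GTML) and endothelial sums (31.5 to 81.4 and 44.7 to 80.7) overlapped, with no gene called. Cerebellar neuron markers summed to 184.7 CPM in GMYC tumor 1 and at most 42.1 in the others, and 1 of them, Cbln3, was called higher in GMYC. The part of any of these lists in the differences above was not tested.

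**Figure D5:**
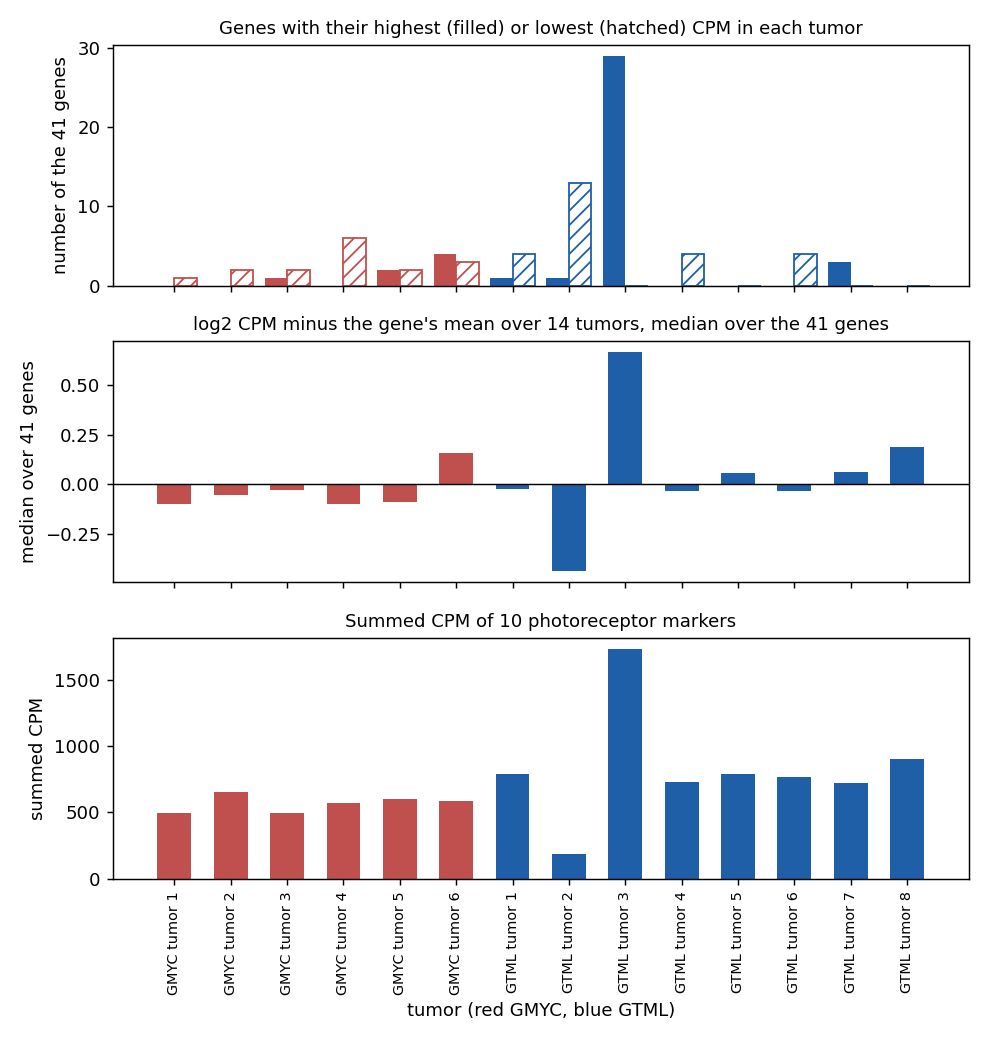
For each of the 14 tumors, the number of the 41 genes with their highest (filled) or lowest (hatched) CPM there, the median over the 41 genes of log2 CPM relative to the gene's mean, and the summed CPM of 10 photoreceptor markers. GTML tumor 3 holds 29 highest values and the largest marker sum, 1730 CPM, and GTML tumor 2 holds 13 lowest values and the smallest sum, 183.0 CPM.

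Other genes of the same machinery, whose symbols the rule leaves out, were read from a list of 53. This list was also written with earlier results of these data known. Of these, 14 were higher in GTML (26.4%, against 11.5% of all genes tested) and 1 was higher in GMYC, with a median log2 fold change of 0.27. None of the 9 further IFT subunits (among them Traf3ip1, Cluap1 and Ttc21b) was called by edgeR, and 3 had an unadjusted p under 0.05. DESeq2 called Traf3ip1 and limma-voom none of the 9. Of the 14 further transition zone and inversin genes 5 passed, of the 7 distal appendage genes 2, of the 7 motor genes 3 and of the 12 membrane traffic genes 4, all higher in GTML.

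Arl6, the GTPase that recruits the BBSome to membranes, was the one gene higher in GMYC. Its CPM lay between 70.6 and 118.3 in GMYC (median 94.6) and between 32.4 and 66.7 in GTML (median 45.6), without overlap. It was the 1 gene of the 53 that lay entirely above in GMYC, as did 2.48% of all genes tested. The log2 fold change was -0.97 (SE 0.17, edgeR adjusted p = 0.0037). Bbs1, to which Arl6 binds, had a positive log2 fold change that did not pass (0.32, SE 0.27, edgeR adjusted p = 0.40).

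Of the 14 genes higher in GTML, Fbf1 and Anks6 did not overlap between the models. These were 2 of the 53 listed genes, and 2.14% of all genes tested lay entirely above in GTML. Fbf1, a protein of the distal appendages that anchor the cilium, ranged from 121.8 to 145.6 CPM in GMYC and from 148.1 to 254.2 in GTML (log2 fold change 0.62, SE 0.12, edgeR adjusted p = 0.0052). Anks6 and Invs, both of the inversin compartment, had log2 fold changes of 1.16 (SE 0.27, adjusted p = 0.0101) and 0.55 (SE 0.15, adjusted p = 0.0179). Gpr161, a ciliary receptor that holds back Hedgehog signalling, had a log2 fold change of 1.83 (SE 0.47, adjusted p = 0.0149), with its highest value, 49.3 CPM, in GTML tumor 2. Adcy3, the adenylyl cyclase of neuronal cilia, also peaked in GTML tumor 2 and had a log2 fold change of 0.66 (SE 0.14, adjusted p = 0.0086). GTML tumor 2, lowest for 13 of the 41 genes, was thus highest for these 2 genes of the ciliary membrane. It was also highest for 15.7% of the protein-coding genes tested, and for other listed genes such as Sclt1 of the distal appendages (105.4 CPM).

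Tmem231, of the Meckel module, had a log2 fold change of 0.86 (SE 0.23, adjusted p = 0.0182). Sclt1, of the distal appendages, stood at 0.51 (SE 0.14, adjusted p = 0.0191), Wdr60, an intermediate chain of dynein-2, at 0.66 (SE 0.19, adjusted p = 0.0222) and Inpp5e, a lipid phosphatase of the ciliary membrane, at 0.47 (SE 0.14, adjusted p = 0.0239). GTML tumor 3 was highest for 19 of the 53 genes, against 12.8% of the protein-coding genes tested. GTML tumor 2 was lowest for 7 of the 53, against 12.4%. Among GTML tumors, Gpr161 and Adcy3 were lowest in GTML tumor 3, at 4.99 and 40.6 CPM.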

How the data were processed

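RNA came from fresh-frozen biopsies (Qiagen RNeasy) and was sequenced with Ion Torrent protocols. The authors mapped reads to mm9 (STAR first, with Bowtie applied after it), used featureCounts with GENCODE gene models to obtain read counts, and deposited these whole-number counts without normalization. The submitters' processing notes name STAR 2.4.0, Bowtie2 2.2 and Subread 1.5.2, and the paper gives other aligner versions. Handling of strand and duplicate reads is not given in the sources used here. A further 18 columns of counts match no sample label and were not used, so the cell lines were not analysed here.

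Gene symbols, types and exon lengths were taken from GENCODE M21 (GRCm38) by Ensembl identifier (87.4% of genes matched). Since counting was on mm9, counted genes are given no coordinates. Promoters are from RefSeq (GRCm38.p6). The 21024 genes over 1 CPM in 3 or more tumors were fitted with edgeR 4.0.16 (R 4.3.3; TMM, quasi-likelihood test, Benjamini-Hochberg adjustment over these genes, threshold 0.05). The study's methods use limma-voom, here an alternative. The code was tested on 1 set of simulated counts. There edgeR called 3 of 100 genes given a log2 fold change of 0.5 in size, and 51 of 100 given 1. Far fewer genes differed there than were called in the tumors, so these shares need not hold here. A gene that did not pass is not shown to be unchanged.

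Alternatives were DESeq2 1.42.0 (no adjusted p for 74 genes), limma-voom (limma 3.58.1), other scalings and filters, protein-coding genes only, a replicate block, each tumor left out in turn, the small nucleolar RNA division (at 0.3% of counts) as a term and each side of it alone, a Y-linked covariate and a stricter call rule. Leaving out GTML tumors 2 and 3 together was added after seeing the data. Tumors of one model always differed beyond counting noise (chi-square per degree of freedom at least 5.67).

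The 41 genes and all lists were chosen with earlier results of these data known. The genes of the set are named, except 2 that count toward its totals but are not reported here. Full values are given for Ift88, Bbs1, the genes with an adjusted p under 0.05 and the 3 with the largest absolute log2 fold change, and values of the 10 called genes with the smallest p among 53 other cilium genes. Kif3b and its ratio to Kif3a were singled out after their values had been seen. So were Kif3c (of the 53), Cep290, Dync2h1 and GTML tumors 2 and 3. Plots used matplotlib 3.10.9 (Python 3.11.15).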

Additional observations from a re-analysis of the deposited data

Results flagged for a closer look

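The CPM of the 41 cilium genes and of the 10 other cilium genes named above was checked in each model for a tumor set far from the rest by Dixon's criterion. Of 102 groups, 13 were picked out, in 11 genes. The criterion picks out about 1 in 20 groups of normally distributed values. CPM need not be so distributed and the 10 other genes were named for their small p, so no excess over that rate is claimed. All 13 were the highest tumor of their model, 9 times GTML tumor 3 and 4 times GMYC tumor 6. The genes share these tumors, so the picks are not independent, and their cause was not tested.

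In GTML tumor 3, Ift22 stood at 45.4 CPM, with the next GTML tumor at 34.7. Wdr19, of IFT-A, stood there at 155.2 against 98.0. Among the BBSome genes, Bbs4 stood at 117.6 against 72.8, Bbs5 at 41.8 against 21.3 and Bbs7 at 88.8 against 60.3. Bbs10, a chaperonin of the BBSome, stood at 34.1 against 21.6. Cc2d2a, of the transition zone, stood at 207.7 against 120.9, Arl13b at 66.2 against 46.8 and Wdr60, of dynein-2, at 116.6 against 81.3.

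In GMYC tumor 6, Ift27 stood at 46.0 CPM against 25.2 in the next GMYC tumor, Ift80 at 175.3 against 119.0, Wdr19 at 117.5 against 71.0 and Arl13b at 65.8 against 48.5. Wdr19 and Arl13b thus stood apart in both models.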

How the results depend on the processing

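The edgeR counts of the 41 genes, 5 higher in GTML and 0 higher in GMYC, moved with most choices. With the same genes, they stayed 5 and 0 without TMM scaling, with DESeq2 size factors and with over 1 CPM asked of 6 tumors. They also stayed so without GTML tumor 1. They were 7 and 2 with DESeq2, 3 and 0 with no filter on low counts, 4 and 2 with protein-coding genes only (which leaves out Tctn2), 1 and 2 with the small nucleolar RNA term, 0 and 0 on either side of that split, 2 and 0 with the Y-linked covariate, 6 and 2 without GTML tumors 2 and 3, and 0 and 0 under the stricter rule. The calls among all genes moved too. They were 2175 and 1629 of 32849 with no filter and 1607 and 1357 of 15333 with protein-coding genes only. Without GTML tumors 2 and 3 they were 3024 and 2743 of 20782. Leaving out 1 tumor gave between 2 and 9 genes higher in GTML and between 0 and 3 higher in GMYC. Among all genes, these fits called from 1433 of 20965 (without GMYC tumor 3) to 3264 of 20936 (without GTML tumor 2) higher in GTML. In the same 2 fits, 1184 and 3166 were higher in GMYC. Of the 41 genes, 2 stayed higher in GTML (Kif3a and Nphp4) without any of GMYC tumors 1, 3, 4 or 5 or GTML tumors 3, 5, 7 or 8. The 53 other cilium genes, 14 higher in GTML and 1 higher in GMYC, gave 9 and 1 with the small nucleolar RNA term, 0 and 0 on its higher and 3 and 0 on its lower side, 7 and 1 with the Y-linked covariate, 14 and 2 without GTML tumors 2 and 3, 0 and 0 under the stricter rule, and 7 to 16 and 1 to 2 when 1 tumor was left out (7 without GMYC tumor 3, 9 without GMYC tumor 5, GTML tumor 5 or GTML tumor 7).

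The replicate block, on the 6 numbered pairs of tumors 1 to 6, gave 0 genes of the 41 in either direction (5 and 2 at an unadjusted p under 0.05) and 0 and 1 of the 53, and called 161 and 90 of 20617 genes in all. The numbers share only a label: same-numbered tumors' deviations from their model means correlated between -0.21 and 0.21.

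The median log2 fold change of the 41 genes, 0.17, lay between -0.02 and 0.23 under the alternatives, each within 1 pooled SD (0.24) between tumors. Ift88 turned negative on the higher side of the split (-0.029) and with the Y-linked covariate (-0.056), and Bbs1 on the higher side (-0.124); neither was past the threshold. Kif3a kept its sign in all 27 refits and its call in 24, Nphp4 in 23, Tctn1 in 13, Ift122 in 11 and Rpgrip1l in 8. The share of promoters with GTTGCC moved from 20.5% to 48.7% with all 300 bases. The cause of these shifts was not tested. The precision is limited by the 6 and 8 tumors. Every gene of the 41 had at least 34 counts in each tumor, and the part of depth in the precision was not tested. The alternatives planned for the cell lines were not run.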
